A study of Bos taurus with 12 samples.

Results

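TNFAIP3, SOCS6 and MAP3K7 are regulators of inflammatory signalling, and the methylation of blood DNA at and around them was compared between cows later culled for mastitis and cows that stayed in the herd. Their members were all rows of the deposited tables that carried 1 of the 3 symbols. In the table of single CpG cytosines (sites) these were 175 of 196275 rows, namely 75 for TNFAIP3, 71 for SOCS6 and 29 for MAP3K7, and in the table of 500-base windows (tiles) they were 0 of 1227 rows. The genes were taken up because their listed sites leaned to 1 direction between these same cows, so the group differences below are a description and carry no test.

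Whole blood was taken from 12 dairy cows (Bos taurus) kept under the same conditions on 1 farm, and methylation was read by enzymatic conversion and sequencing. The group MSG (Mastitis Susceptible Group) held 6 cows that were culled within 1 year for complications of mastitis not identified at sampling, and the group MRG (Mastitis Resilient Group) held 6 cows of a similar age distribution that were still in the herd. Mastitis is inflammation of the mammary gland, most often bacterial, and the comparison asks whether blood methylation differed between these groups ahead of the outcome. The labels gave no treatment, breed, parity, batch or blood cell count for either group, and the ages were not stated. Enzymatic conversion turns unmethylated cytosines into bases read as thymine, so a thymine that a cow inherited at a listed cytosine also counts as unmethylated. In whole blood, a different share of a cell type and a different methylation within that cell type cannot be told apart, and no expression was measured by which the blood label could be checked.

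TNFAIP3 encodes A20, an enzyme that edits ubiquitin chains on signalling proteins and so restrains NF-kappaB after tumour necrosis factor, interleukin 1 or bacterial products have reached a cell. MAP3K7 encodes TAK1, the kinase that binds to such ubiquitin chains through its TAB partners and switches on both the IkappaB kinases and the stress-activated kinases, so A20 and TAK1 act at neighbouring steps with opposite effect. SOCS6 encodes an adaptor with an SH2 domain and a SOCS box, which brings a cullin ubiquitin ligase to receptor tyrosine kinases such as KIT. In leukocytes A20 and TAK1 help to set how strongly and how long an inflammatory signal runs. In human genetics the intergenic sequence on the upstream side of TNFAIP3 is known for variants associated with autoimmune disease.

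Every listed row had been selected by the authors for a difference between these cows. In the authors' deposited table of sites the smallest absolute difference was 25 percentage points and the largest q-value was 0.01. Depth was not used, so the precision of a single cow's value is not known here. The spread between cows mixes it with the variation among cows. Over all listed sites the cows' means ran from 53.9% to 55.1% in MSG and from 51.8% to 54.0% in MRG. No site of the whole table passed limma's test after Benjamini-Hochberg adjustment (0 of 196275 called, 0%), with 101964 at an unadjusted p under 0.05, and 0 passed an exact permutation test, with 69606 at an unadjusted p under 0.05. Of all listed tiles 73.3% passed limma's test (899 of 1227, against 213 by the exact permutation test), and none lay within the span of sites of TNFAIP3, SOCS6 or MAP3K7.

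Where the sites lay differed between the genes. TNFAIP3 (ENSBTAG00000000436, chromosome 9, 75740934 to 75756753, plus strand, ARS-UCD1.2) had 62 intergenic sites, all upstream and up to 169.9 kb from the start, 5 promoter sites, 2 intronic sites and 6 sites in the 3' untranslated region. Of its 75 sites 10 lay inside the gene. MAP3K7 (ENSBTAG00000002625, chromosome 9, 59679581 to 59744280, plus strand) had 26 intergenic sites, as far as 251 kb upstream, and 3 intronic sites. SOCS6 (ENSBTAG00000017412, chromosome 24, minus strand) had 71 intergenic sites and none inside its gene model of 1.58 kb (7020091 to 7021668). All of them lay downstream, 62.7 to 827 kb from the start. Its values therefore describe the sequence beyond SOCS6, which the authors' annotation assigned to it as the nearest gene.

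**Figure D1:**
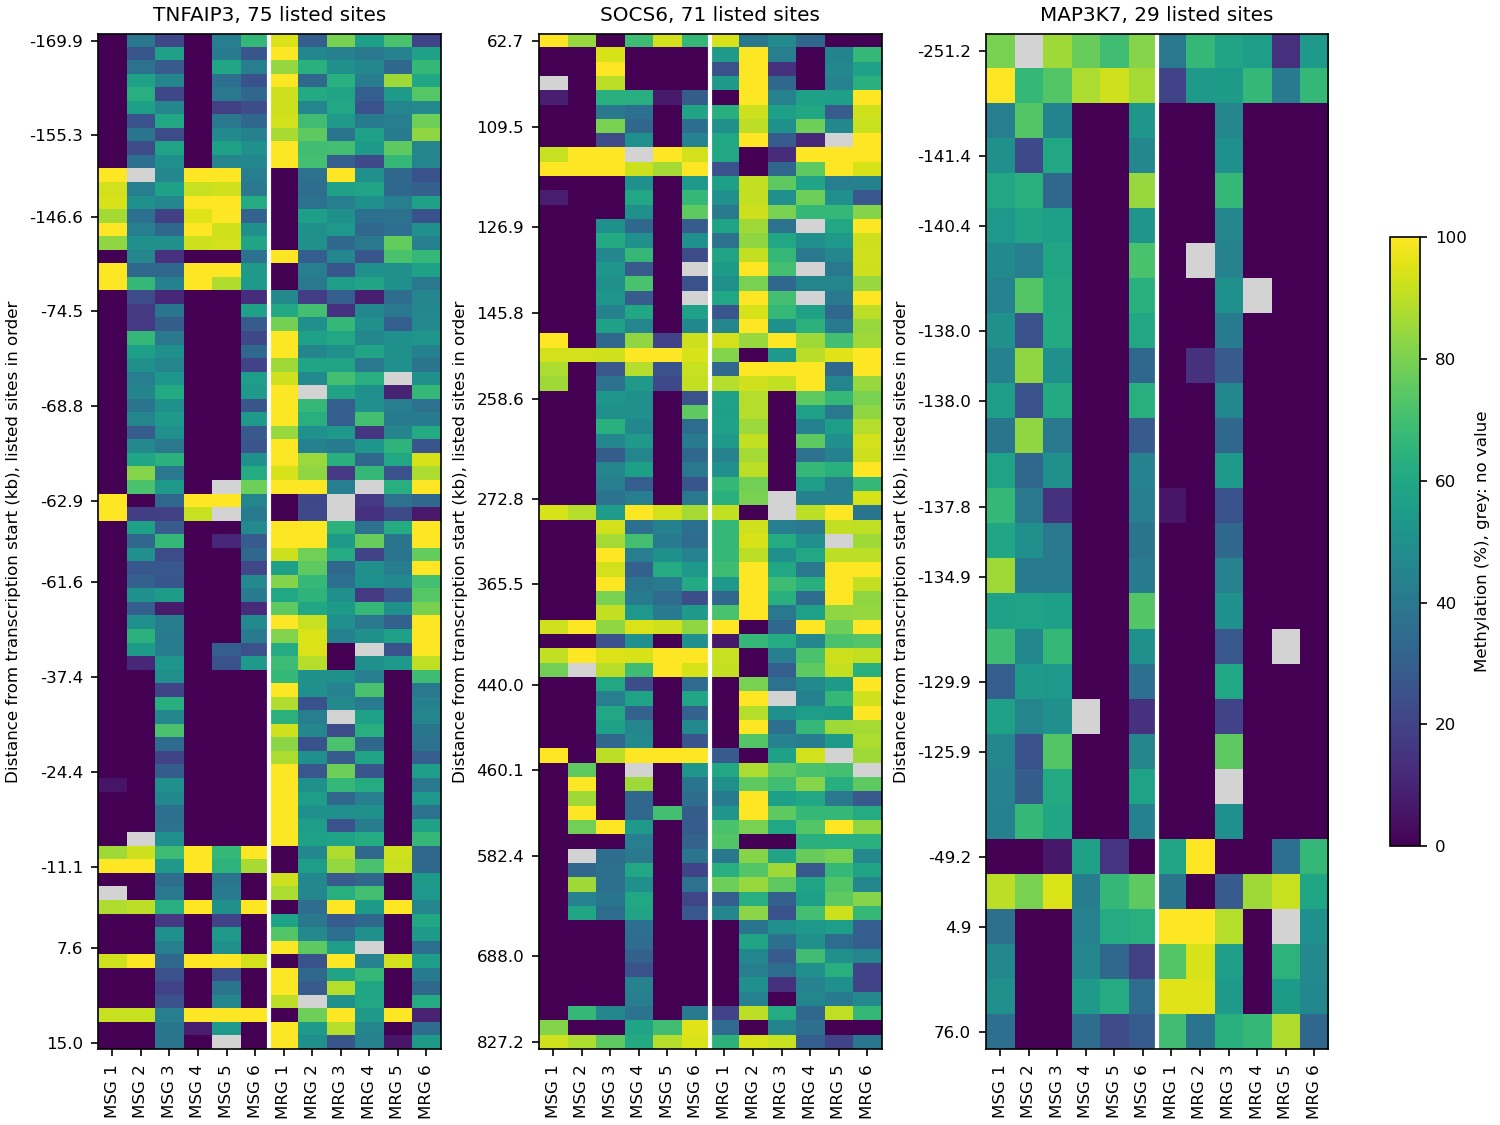
Percent methylation (colour) at every listed site of TNFAIP3, SOCS6 and MAP3K7, with 1 column per cow (MSG left of the white line, MRG right of it) and sites in order of their signed distance from the transcription start in kb; grey marks a missing value. Columns often keep 1 colour over neighbouring sites of the same direction, dark at or near 0%, middle or bright at or near 100%. In many columns the colour changes where a site of the other direction lies between, and also along the sequence. The lower sites of TNFAIP3 are dark at every value of MSG replicates 1 and 4.

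TNFAIP3 had 60 of 75 sites lower and 15 higher in MSG, so 80% were lower where 47.3% of all listed sites were. At the 60 lower sites the cows' means in MSG replicates 1 to 6 were 0.0942%, 27.1%, 40.1%, 0.128%, 14.8% and 23.9%. In MRG replicates 1 to 6 they were 89.1%, 57.8%, 47.9%, 46.7%, 29.1% and 59.5%. MSG replicate 3 stood above MRG replicate 5, so the groups overlapped, and the group means were 17.7% ± 15.8 and 55.04% ± 19.9 (SD, n = 6 each). Over all 75 sites the group means were 29.0% ± 8.27 and 52.3% ± 11.8. The 15 higher sites are by definition those where the mean of MSG was above that of MRG. At these, MSG replicates 1 to 6 stood at 94.4%, 58.2%, 42.8%, 98.0%, 89.2% and 63.9%, and MRG replicates 1 to 6 at 0%, 42.3%, 68.6%, 44.3%, 59.8% and 36.4%. MRG replicate 1 was at exactly 0 at all 15 of these sites and was the highest cow at the lower sites. MSG replicates 1 and 4 showed the opposite: at the lower sites they were at exactly 0 in 58 of 59 and 59 of 60 values, and at the higher sites all 15 values of each were at or above 80%.

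**Figure D2:**
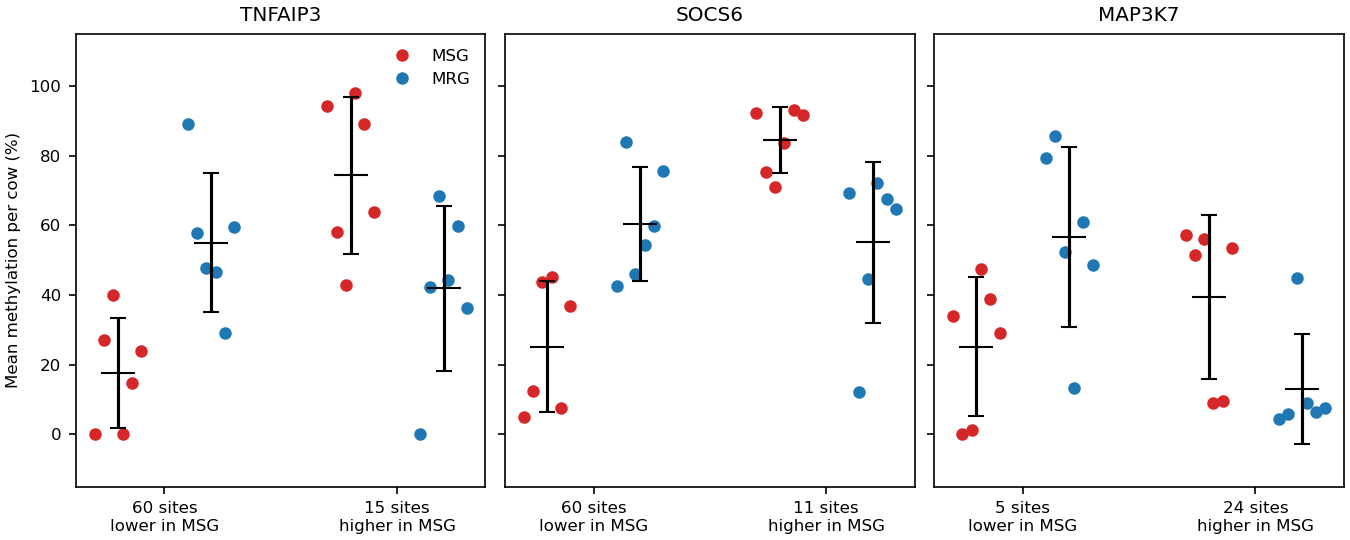
Mean methylation per cow in percent over the sites of each gene that were lower and those that were higher in MSG (points, 6 cows per group; bar and whiskers, mean ± SD). The groups overlap in each of the 6 comparisons, and at the 24 higher sites of MAP3K7 the cows of MSG fall into 4 near 50% and 2 near 9%.

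By gaps of 10 kb or more the TNFAIP3 sites formed 4 stretches, of which the farthest upstream (75571015 to 75595796) held 15 sites. Over its 10 lower sites the medians of MSG replicates 1 to 6 were 0%, 38.0%, 45.8%, 0%, 42.3% and 38.1%, and those of MRG replicates 1 to 6 were 94.0%, 62.4%, 56.1%, 41.9%, 50% and 58.6%. Only MSG replicates 1 and 4 were at 0 there. The next stretch (75653217 to 75688469, 87.7 to 52.5 kb upstream) held 32 sites, the most of the 4. Over its 27 lower sites MSG replicates 1, 4 and 5 had medians of 0% and MSG replicates 2, 3 and 6 of 45.5%, 42.1% and 37.5%. The MRG medians there ran from 44.2% in MRG replicate 5 to 92.9% in MRG replicate 1. MSG replicate 5 thus stood near the middle in the outer stretch and at 0 in this one.

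The third stretch (75703550 to 75729816, 37.4 to 11.1 kb upstream) held 13 lower and 2 higher sites. At its lower sites MSG replicates 1, 2, 4, 5 and 6 and MRG replicate 5 all had medians of 0%. MSG replicate 3 had 46.2%, MRG replicate 1 had 100%, and MRG replicates 2, 3, 4 and 6 had 50%, 48.5%, 50% and 43.8%. The group means were 7.18% ± 17.4 and 46.9% ± 28.8 (SD, n = 6 each). MSG replicate 3 lay inside the range of MRG, and MRG replicate 5 inside that of MSG.

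The stretch over the gene itself (75740108 to 75755908) held 10 lower and 3 higher sites. At the promoter CpG 0.826 kb upstream of the start (plus strand, 75740108), MSG replicates 1 to 6 stood at 0%, 0%, 35.7%, 0%, 38.5% and 0%. MRG replicates 1 to 6 stood at 92.3%, 46.7%, 28.6%, 33.3%, 0% and 54.5%. MSG was at 12.4% ± 19.2 and MRG at 42.6% ± 30.7 (SD, n = 6 each), and the groups overlapped. A promoter site nearer to the start (75740138, 0.796 kb upstream) was higher in MSG, with MSG replicates 1 to 6 at 88.2%, 90%, 62.5%, 100%, 50% and 100% and MRG replicates 1 to 6 at 0%, 35.7%, 100%, 54.5%, 100% and 45.5%. The other promoter CpG (75743468 and 75743469, 2.53 kb inside the gene) was lower in MSG on both strands, at 6.11% ± 9.53 against 36.6% ± 22.0 and at 17.3% ± 26.8 against 43.6% ± 24.5.

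In the gene body the same cows stood at the ends. The site in intron 3 of 8 (75748546) had a mean of 15.5% ± 24.1 over the 6 MSG cows and 53.4% ± 38.0 over 5 MRG cows, and the site in intron 7 of 8 (75752998) was higher in MSG, at 86.6% ± 26.3 against 53.1% ± 38.8 (n = 6 each). In the 3' untranslated region 5 sites were lower and 1 was higher in MSG. At 75754987, MSG replicates 1 to 6 stood at 0%, 0%, 20%, 0%, 38.5% and 0%, and MRG replicates 1 to 6 at 100%, 28.6%, 88.9%, 58.8%, 0% and 33.3%. The higher site (75755518) had means of 87.7% ± 22.3 for MSG and 56.9% ± 43.8 for MRG. In both of these, MRG replicate 1 and MSG replicates 1, 2, 4 and 6 lay at opposite ends, with MRG replicate 5 on the side of those MSG cows.

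**Figure D3:**
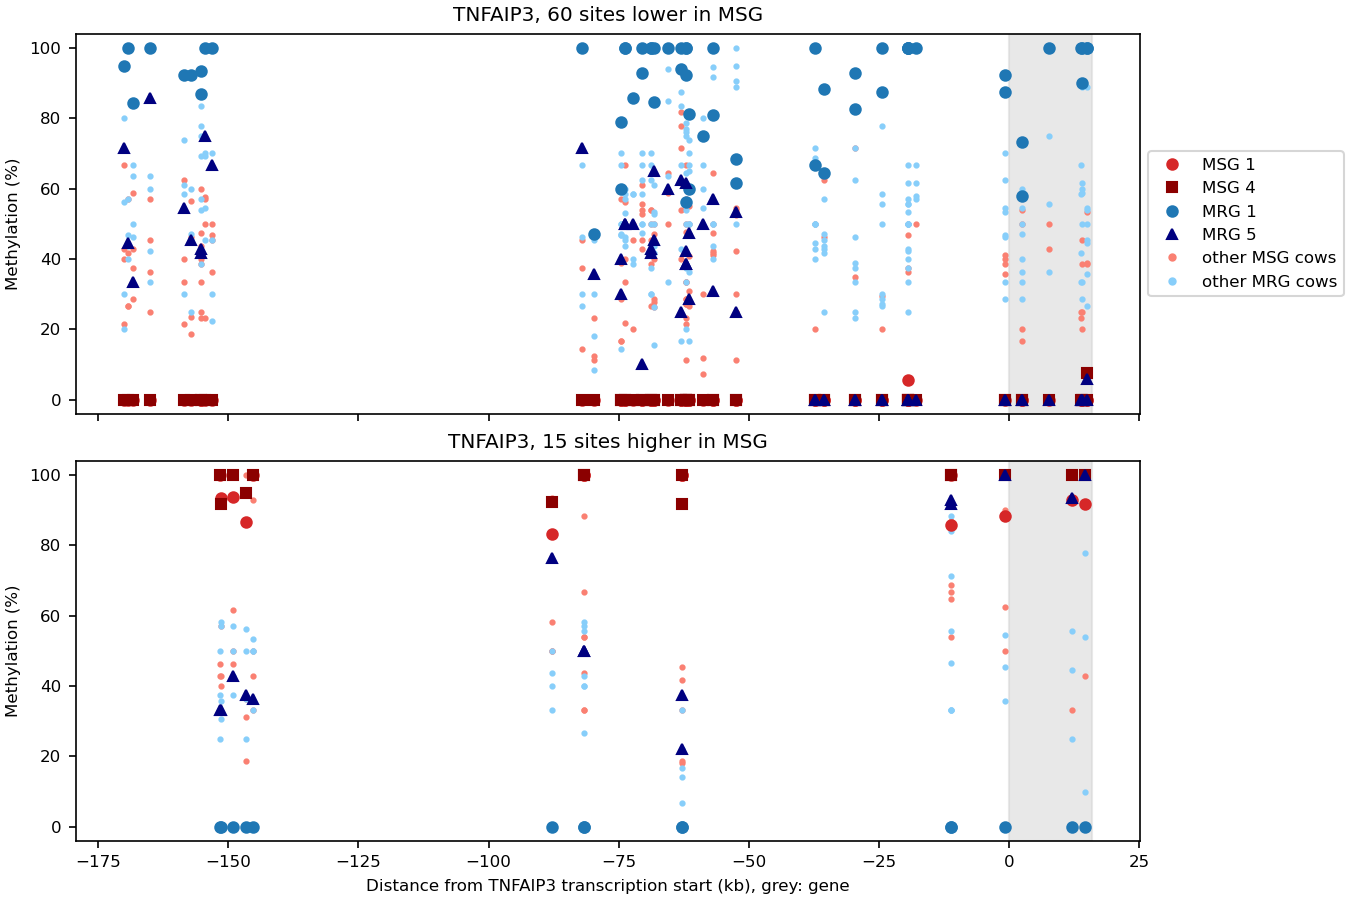
Percent methylation against the distance in kb from the TNFAIP3 start, at the sites lower (top) and higher (bottom) in MSG, with 4 cows marked and the others as small points; grey shading is the gene. At the lower sites MRG replicate 1 is at or above 80% in 48 of 60 values and in the middle in the other 12, with MSG replicates 1 and 4 near 0% throughout, and MRG replicate 5 passes from the middle in the outer 2 stretches to 0% at the lower sites of the inner 2.

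The largest differences at TNFAIP3 lay 58.8 to 62.9 kb upstream. At 75682173 (minus strand) MSG replicates 1 to 6 stood at 0%, 30%, 7.14%, 0%, 0% and 11.8%, and MRG replicates 1 to 6 at 75.0%, 60%, 54.5%, 66.7%, 50% and 80%. Every MSG cow was below every MRG cow at this site, and the means were 8.15% ± 11.8 and 64.4% ± 11.7 (SD, n = 6 each). At 75678828 the means were 22.2% and 77.2%, a difference of -55 points. In the higher direction, the CpG at 75677991 and 75677992 differed by 41.3 points on the plus strand and 41.0 on the minus strand. It lay in a run of 10 TNFAIP3 sites within 1.42 kb, of which 8 were lower and 2 higher.

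At 3 of the 75 TNFAIP3 sites the cows of the groups did not overlap (4%), all of them lower in MSG, where 2.36% of all listed sites were free of overlap and 0.971% were so and lower in MSG. The other such sites were 75666432, at 12.4% ± 14.4 against 53.8% ± 17.0, and 75678869, at 12.7% ± 14.0 against 59.4% ± 24.4. On the other strand of both CpGs the groups overlapped. At 75666431 MSG replicate 6 stood at 57.1% and MRG replicate 3 at 14.3%. At 75678868 MSG replicate 2 stood at 50% and MRG replicate 4 at 20%. With each CpG counted once, the count was 2. The count depended on the cows: it was 5 without MSG replicate 2, 6 without MSG replicate 3 and 11 without MRG replicate 5. A count of this kind grows with fewer cows.

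SOCS6 had 60 of 71 sites lower in MSG (84.5%) and 11 higher. At the lower sites the cows' means in MSG replicates 1 to 6 were 4.90%, 12.4%, 43.7%, 45.2%, 7.65% and 37.0%. In MRG replicates 1 to 6 they were 42.8%, 84.0%, 46.1%, 54.5%, 59.8% and 75.7%. MSG replicates 1, 2 and 5 were far below all others, while MSG replicates 3 and 4 overlapped the low end of MRG, and the group means were 25.1% ± 18.8 and 60.5% ± 16.4 (SD, n = 6 each). At the 11 higher sites MSG replicates 1 to 6 stood at 92.3%, 75.4%, 70.9%, 83.7%, 93.1% and 91.6%, and MRG replicates 1 to 6 at 69.2%, 12.2%, 44.7%, 72.2%, 67.6% and 64.8%. MRG replicate 2, the highest cow at the lower sites, was the lowest here, with 9 of its 11 values at exactly 0.

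The SOCS6 sites were spread over 764 kb and formed 23 stretches, of which 7 had at least 4 sites and together held 48. The fullest (6894600 to 6896101, 126 to 127 kb from the start) held 11 sites within 1.501 kb. Over its 9 lower sites the medians of MSG replicates 1 to 6 were 0%, 0%, 50%, 50%, 0% and 50%, and those of MRG replicates 1 to 6 were 54.5%, 90.9%, 66.7%, 54.2%, 46.2% and 92.3%. Its 2 higher sites, the strands of 1 CpG, had medians of 92.3% or more in every MSG cow, while MRG replicates 2, 3 and 1 stood at 0%, 22.9% and 42.5% and the other MRG cows at 87.5% or more. The largest differences of SOCS6 in both directions lay in this stretch. At 6894600 (plus strand) the means were 16.2% ± 23.8 and 74.0% ± 26.1 over 5 cows of each group, and at 6896100 they were 96.5% ± 5.71 and 54.6% ± 40.9 over 6 cows each.

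In other SOCS6 stretches the cows at the ends changed in part. In the stretch 460 to 467 kb from the start (6554799 to 6561552), the 4 sites, all lower, gave medians of 0% in MSG replicates 1, 3 and 5, while MSG replicate 2 was at 92.9%, near MRG replicate 2 at 93.8%. In the stretch 259 to 273 kb from the start (6748759 to 6763031), the 8 lower sites gave medians of 0% in MSG replicates 1, 2 and 5 and also in MRG replicate 3, and of 87.8% and 90.6% in MRG replicates 2 and 6. In the stretch 687 to 694 kb away (6327318 to 6334309), the 6 lower sites gave medians of 0% in every MSG cow but MSG replicate 4 (36.0%) and in MRG replicate 1, and of 30% to 50% in the other MRG cows. In the stretch nearest to the gene (6942499 to 6958959), MSG replicate 3 was at 94.1% over the 3 lower sites and the other MSG cows at 0%, and MRG replicates 1 to 6 were at 53.8%, 100%, 33.3%, 0%, 45.0% and 63.6%. At 1 SOCS6 site (1.41%), 6748846, the groups did not overlap, and it was lower in MSG. Of all listed sites 2.36% were free of overlap and 0.971% were so and lower in MSG. The means at 6748846 were 20.2% ± 22.1 over the 6 MSG cows and 65.0% ± 22.1 over 5 MRG cows. No value was given there for MRG replicate 3, which stood at 0% at the other strand of that CpG. That count was 5 without MSG replicate 3, 3 without MRG replicate 3 or 5, and 2 without MSG replicate 1, 2 or 4 or MRG replicate 1.

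MAP3K7 leaned the other way, with 24 of 29 sites higher in MSG and 5 lower (17.2% lower, where 52.7% of all listed sites were higher). At the higher sites the cows' means in MSG replicates 1 to 6 were 57.2%, 51.6%, 56.1%, 8.98%, 9.53% and 53.6%. In MRG replicates 1 to 6 they were 4.33%, 5.86%, 44.9%, 9.04%, 6.38% and 7.48%. The groups overlapped: MSG replicates 4 and 5 lay at the level of most MRG cows, MRG replicate 3 lay near the other 4 MSG cows, and the means were 39.5% ± 23.5 and 13.0% ± 15.7 (SD, n = 6 each). Of the 24 sites 21 formed a single stretch of 18.1 kb, 144 to 126 kb upstream (59535685 to 59553788). There the medians of MSG replicates 1, 2, 3 and 6 were 50%, 46.7%, 56.2% and 46.2%, that of MRG replicate 3 was 45.5%, and the other 7 cows had medians of 0%. No cow had a median above 56.2% in this stretch.

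The remaining 8 MAP3K7 sites behaved differently. The only 2 with no cow at exactly 0 were the farthest upstream. At 59428424, MSG replicates 1, 3, 4, 5 and 6 stood at 80%, 85.7%, 76.9%, 69.2% and 81.8% with no value for MSG replicate 2, and MRG replicates 1 to 6 at 40%, 66.7%, 58.3%, 55.6%, 13.3% and 53.8%. It was the only MAP3K7 site of the 29 without overlap between the groups (3.45%). Of all listed sites 2.36% were free of overlap and 1.39% were so and higher in MSG. The MAP3K7 count was 2 without MSG replicate 2, MRG replicate 4 or MRG replicate 6. At 59467844, 212 kb upstream, the means were 84.5% ± 12.4 for MSG and 50.6% ± 17.7 for MRG, and the lowest MSG cow and the highest MRG cow shared a value of 66.7%. Inside the gene the direction was reversed. The site in intron 1 of 15 (59684701) had MSG replicates 1 to 6 at 36.8%, 0%, 0%, 44.4%, 61.5% and 62.5% and MRG replicates 1, 2, 3, 4 and 6 at 100%, 100%, 88.9%, 0% and 50%. The 2 sites in intron 5 stood at 24.2% ± 21.3 against 55.8% ± 31.8 and at 33.4% ± 27.3 against 57.6% ± 35.5. MSG replicates 2 and 3 and MRG replicate 4 were at exactly 0 at all 3 intronic sites. The site beyond the gene (59755774, 76.0 kb from the start) had the largest difference in the lower direction, at 20.6% ± 16.7 in MSG and 59.9% ± 20.6 in MRG.

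The values of single cows gathered near 0%, around the middle and near 100% at TNFAIP3 and SOCS6, and near 0% and around the middle at MAP3K7. Of 885 values at TNFAIP3 sites, 26.9% were at exactly 0 and 8.36% at exactly 100, and 27.8% were at or below 10%, 56.8% between 10% and 80%, and 15.4% at or above 80%. SOCS6 had 26.7%, 48.5% and 24.8% of 835 values in these bands and MAP3K7 had 46.9%, 46.0% and 7.04% of 341. Over all listed sites the bands held 22.3%, 41.8% and 35.9%. At least 1 cow was at exactly 0 at all 75 sites of TNFAIP3, 70 of 71 of SOCS6 and 27 of 29 of MAP3K7, where this held for 78.3% of all listed sites. The median number of cows at 0 was 3 for TNFAIP3 and SOCS6 and 7 for MAP3K7, against 2 over all listed sites. Whether sequence variants at these cytosines had a part in the values at 0 was not tested.

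**Figure D4:**
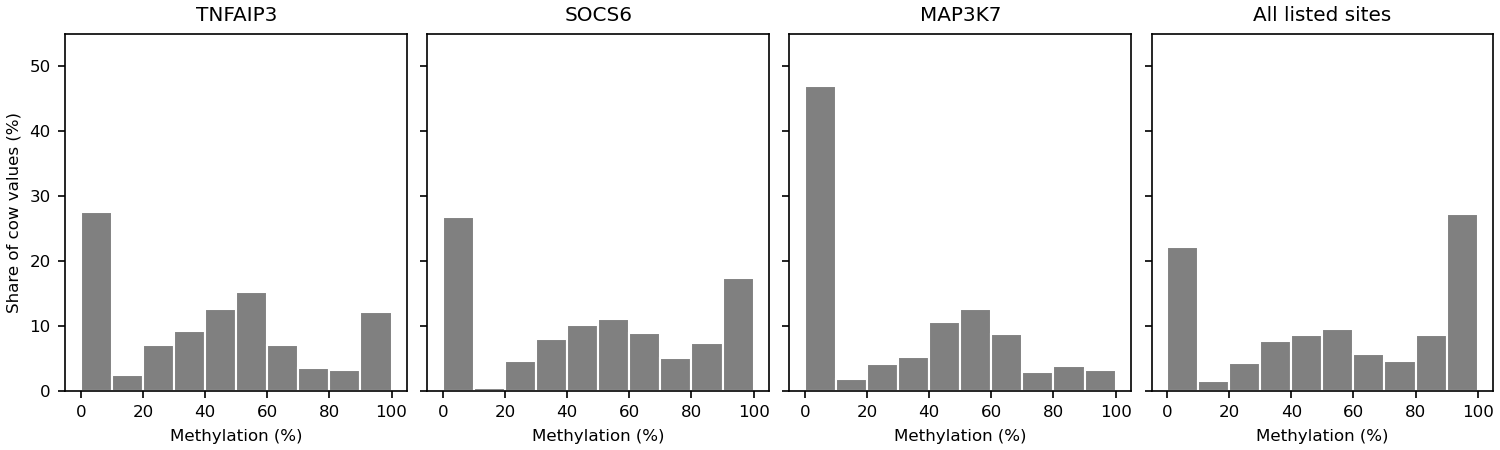
Share of the cows' values (percent) in bins of 10 percentage points of methylation, for the listed sites of TNFAIP3, SOCS6, MAP3K7 and the whole table. Each gene has a peak at the lowest bin and a broad hump around the middle; a peak in the highest bin is smaller in TNFAIP3 and SOCS6 than in the whole table, and MAP3K7 has none.

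A cow kept its band along a stretch at most sites. Taking stretches with at least 3 sites of a direction, 94.1% of the TNFAIP3 values, 94.6% of the SOCS6 values and 98.0% of the MAP3K7 values lay in the band that was most frequent for that cow in that stretch. Over all genes with a symbol the share was 86.2%. These came from 7 sets of sites for TNFAIP3, 8 for SOCS6, only 1 for MAP3K7 and 11097 over all genes. The middle band is wide, and the genes differ from the whole table in how their values divide among the bands. The comparison with 86.2% did not take this into account. Where a TNFAIP3 stretch had sites of both directions, a cow's medians in the lower and higher sites added to a value within 20 points of 100% in 39 of 48 cases (81.3%). For SOCS6 this was so in 22 of 47 (46.8%) and over all listed genes in 56.1%. The sites were split by the sign of the group difference in these same cows, so such sums may follow in part from the split. A cow in the middle at both kinds of site also gives a sum near 100%. Both kinds of share describe neighbouring sites within each cow, only some of them close enough to share reads. The bands were set after the values were seen.

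The strands of a CpG mostly shared a band, though values within the wide middle band could lie far apart. TNFAIP3 had 24 CpGs listed on both strands, SOCS6 13 and MAP3K7 3, which was 64%, 36.6% and 20.7% of their sites against 43.9% of all listed sites. In the same cow the strands fell into the same band in 265 of 277 pairs of values for TNFAIP3, 140 of 146 for SOCS6 and 33 of 36 for MAP3K7, and never into opposite outer bands. Where a strand was at exactly 0, the other was too in 85 of 90, 42 of 43 and 19 of 21 cases. The median gap between strands was 5.45 points for TNFAIP3, 5.88 for SOCS6 and 0 for MAP3K7, against 5.56 over all listed sites. Pairs at 0 on both strands entered these medians, and they were 19 of the 36 pairs of MAP3K7. At the TNFAIP3 CpG of 75666431 and 75666432, MRG replicate 3 stood at 14.3% on the plus strand and 66.7% on the minus strand, both in the middle band. The strands of a CpG are read from different strands of the same DNA and are no independent samples.

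**Figure D5:**
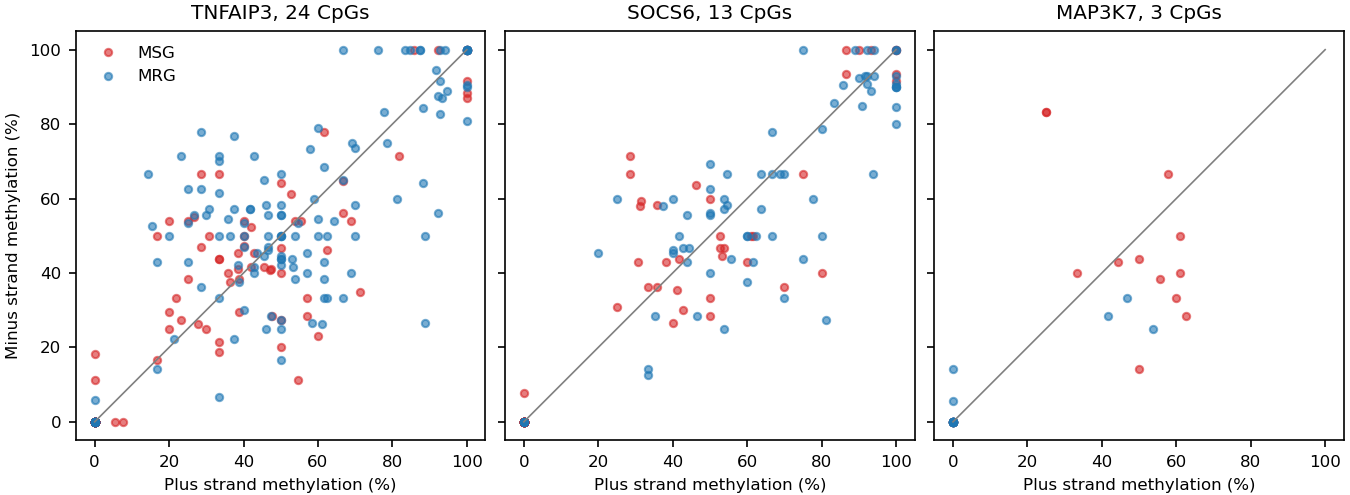
Percent methylation on the minus strand against the plus strand of the same CpG in the same cow (points; red MSG, blue MRG; grey line, equal values), for CpGs listed on both strands. Points gather at 0% on both strands, near 100% on both, and in a cloud around the middle, and no point lies at 0% on 1 strand and near 100% on the other.

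Sites around the 3 genes did not all lean the same way. Within 1 Mb of the TNFAIP3 sites the table held 553 further sites, 19 of them with no gene symbol, of which 255 were lower and 298 higher in MSG. HEBP2, which encodes a heme-binding protein, had 69 of 93 lower, OLIG3, a transcription factor gene and the protein-coding neighbour upstream of TNFAIP3, had 51 of 77 lower, and IL20RA, which encodes an interleukin receptor subunit, had 19 of 58 lower. Around SOCS6 there were 70 further sites, 7 of them with no symbol, of which 50 were lower and 20 higher. CBLN2, a synaptic organiser gene, had 44 of 57 lower, and RTTN, a gene of centriole assembly, had 1 of 6. Around MAP3K7 there were 51 further sites, 18 of them with no symbol, of which 25 were lower and 26 higher, with BACH2, a transcription factor gene of lymphocytes, at 7 of 8 lower, GJA10, a gap junction gene, at 3 of 8 and ANKRD6 at 0 of 6.

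The genes most like each member were sought by the mean absolute difference, over the 12 cows, between the cows' means over all listed sites, among 3620 other genes with at least 10 sites. For TNFAIP3 they were ARFGEF3 at 7.29 points, which lies near TNFAIP3 on chromosome 9, PAPOLG at 7.78 and CDIN1 at 7.96, against a median of 23.4 points over all genes. For SOCS6 they were ERCC6L2 at 6.31 points, CBLN2 at 8.14, which has sites within 1 Mb of those of SOCS6, and MYB at 8.70, against a median of 22.1. For MAP3K7 they were PHLDB2 at 7.13, MIR2365 at 7.58 and LOC112441899 at 8.14, against a median of 29.7. The measure follows level and group together, and genes near each other share their stretch of chromosome.

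The wider pathways had listed sites of both directions. Of 13 genes for A20, its partners and related regulators of ubiquitin, 10 had a site, and apart from TNFAIP3 they held 75 sites, 42 lower and 33 higher in MSG. TNIP2, which encodes an A20-binding protein, had 7 of 20 lower, with MSG at 57.4% ± 6.67 and MRG at 48.2% ± 13.9 over all its sites (SD, n = 6 each). Of 15 genes of the TAK1 module 12 had a site, with 61 lower and 69 higher apart from MAP3K7. The kinase gene MAP2K6, which acts below TAK1, had 26 of 38 lower (55.4% ± 14.8 in MSG against 69.3% ± 6.12 in MRG), the kinase gene NLK had 11 of 26 lower, and TAB2, the adaptor by which TAK1 binds ubiquitin chains, had 8 of 20 lower. Of 40 genes of the NF-kappaB core and of signalling near its receptors 15 had a site, with 43 lower and 101 higher.

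Of 35 genes of the SOCS family and JAK-STAT signalling 19 had a site, and apart from SOCS6 they held 157 sites, 27 lower and 130 higher in MSG. RBX1, which encodes the RING subunit of cullin ligases, held 54 of these, all higher (82.7% ± 20.4 in MSG against 28.3% ± 37.6 in MRG), and STAT4 had 14 of 21 higher (60.1% ± 7.96 against 46.7% ± 7.98). The share of sites lower in MSG with the members left out was 56% for the A20 list, 46.9% for the TAK1 list, 29.9% for the NF-kappaB list and 17.2% for the SOCS and JAK-STAT list, beside 47.3% for all listed sites. The SOCS6 sites thus made up 60 of the 87 lower sites of their list. As no site of the whole table passed the adjusted limma test, none of any list did.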

How the data were processed

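The authors deposited percent methylation per cow for single CpG cytosines by strand (sites) and for windows of 500 bases (tiles), with their difference in percentage points (MSG minus MRG, another measure of difference), p-value and q-value, assigned gene and its distance from the gene start, per the file headers. Tools listed in the submitters' processing notes, without their roles, are Bismark, DRAGEN, fastp 0.23.1 and ChIPseeker 1.32.1, and the build is ARS-UCD1.2. Which differential test was run is not given in the sources used here. Both deposited tables held only rows past a difference of 25 points. Columns of reads in the tile table (36) carried numbers in place of cow names and were not used, so the depth is unknown here and no interval for it is given.

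Columns were matched to cows by title. Replicate numbers follow the order of the records and pair no cows. The groups were compared at every site and tile by limma 3.58.1 (R 4.3.3), applied to percent values (two-sided, no covariate, threshold 0.05 after Benjamini-Hochberg adjustment), and with an exact permutation test over 924 regroupings; both were tested on simulated data. The cows are separate animals. Means and SDs per cow were computed in Python 3.11.15. The members and gene lists were chosen with earlier results of these data known. Sites described singly were those in promoters, introns and untranslated regions, for each gene the 2 that differed most in either direction, and those without overlap; genes of a list were named from 20 sites upward, of which some are not reported here, and 3 neighbours and 3 most similar genes per member. Runs joined sites closer than 1 kb. The bands (10% and 80%) and the stretches (gaps of 10 kb, at least 4 sites) were set after seeing the data. Neighbouring genes were read from a RefSeq table of assembly ARS-UCD2.0, from which no coordinates were taken. No sequences are printed.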

Additional observations from a re-analysis of the deposited data

Results flagged for a closer look

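Dixon's ratio of the end gap to the range was taken in 18 groups of 6 cows (3 genes, by all, lower and higher sites, in MSG and MRG). For normally distributed values chance flags about 1 in 20 such groups, a rate that may not hold for values gathered in bands. The ratio passed its 95% critical value for 6 samples in 2 groups, at 0.718 and 0.884. Both cases were MRG replicate 3 at MAP3K7. Over all 29 sites it stood at 46.2%, with the next MRG cow at 20.1%, and over the 24 higher sites at 44.9%, with the next at 9.04%. These groups share most of their sites and are not independent. Without this cow the difference of MSG over MRG over all MAP3K7 sites was 21.8 points, and with it 16.6 points.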

How the results depend on the processing

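Over all listed sites the mean difference of MSG minus MRG was -23.4 points for TNFAIP3, -25.4 for SOCS6 and 16.6 for MAP3K7, and with a cow left out it ran from -26.8 to -19.6, from -28.7 to -22.3 and from 13.4 to 21.8. With the median over sites it was -36.4 for TNFAIP3 and -41.8 for SOCS6. Over sites with a difference of 40 points or more it was -38.2 for TNFAIP3, and the share lower was 91.3% for TNFAIP3 and 92.3% for SOCS6. With no cow at exactly 0, TNFAIP3 had no site left; the single SOCS6 site left gave 26.8 points and a share lower of 0%, and the 2 MAP3K7 sites 31.3 points and a share of 0%. Within the gene or 10 kb of its start MAP3K7 gave -29.3 points over 3 sites; SOCS6 had none there, and MAP3K7 had none of 40 points or more. Sites without overlap numbered 3 to 11 for TNFAIP3, 1 to 5 for SOCS6 and 1 to 2 for MAP3K7 with a cow left out; SOCS6 had 0 with all 12 cows present, 0 with each CpG counted once and 0 with no cow at 0, and MAP3K7 had 0 with all 12 cows present. The limma count of sites was 31207 with no cow at 0 and ran from 0 to 74 with a cow left out. The tile count, 899, was 213 by the exact permutation test, 0 at a threshold of 0.01 and 397 to 797 with a cow left out. The cause of these shifts was not tested, and several of the settings also left fewer sites or cows. With band limits of 5% and 90%, chosen after seeing the data, the middle band of SOCS6 rose from 48.5% to 56.4%. No paired analysis was possible because the labels carry no replicate numbers.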

Other observations

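Blood cell markers had listed sites of both directions, and their part in the values of TNFAIP3, SOCS6 and MAP3K7 was not tested. Of 8 neutrophil genes 2 had a site, with 3 lower and 10 higher in MSG, and of 5 monocyte genes 2, with 3 lower and 25 higher. Of 7 T cell genes 4 had a site (23 lower, 16 higher), of 6 B cell genes 4 (8 lower, 23 higher), of 5 NK cell genes 3 (5 lower, 15 higher), and of 7 erythroid and platelet genes 3 (102 lower, 82 higher), with 162 of these 184 sites at GYPC, a red cell membrane gene. The cows' means over these sites ran from 64.5% to 80.2% in MSG and 20.9% to 81.3% in MRG for neutrophils, from 85.7% to 93.3% and 43.9% to 88.6% for monocytes, and from 21.8% to 46.8% and 37.2% to 50.1% for T cells. For B cells they ran from 69.4% to 83.7% and 38.6% to 79.1%, for NK cells from 68.5% to 82.0% and 28.1% to 61.6%, and for erythroid and platelet genes from 40.3% to 69.5% and 41.9% to 69.9%. For NK cells the ranges did not overlap, over sites that the authors had selected for a group difference. Of those 20 sites 14 were at NCR1 (77.7% in MSG against 50.1% in MRG). KLRK1 had 3 sites, all higher, and PRF1 had 3 and went the other way (66.5% against 74.5%). Of the 28 monocyte sites 26 were at CD163, with 25 of them higher, and the 2 LYZ sites were lower. Among the T cell sites, all 12 at CD4 (46.4% in MSG against 84.4% in MRG) and all 4 at LCK were lower. At CD3E 14 of 18 were higher (29.2% against 17.1%), and at CD8A 3 of 5 were lower.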
